A study of Mus musculus with 8 samples.

Results

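The genes described here encode 10 enzymes that break down tryptophan and pyrimidines, namely Afmid, Kmo, Kynu, Haao, Acmsd, Qprt and Aadat of the kynurenine route and Dpyd, Dpys and Upb1 of uracil and thymine breakdown. They were picked by name from a table of 23219 genes, with values of the same mutant and control kidneys in view, so their differences between the groups are a description, and counts of members past a threshold are given only beside the share of all genes. Whole kidneys of mice 2 months old were sequenced. The 4 controls, libraries 3401, 3486, 3586 and 3587, had the genotype Mta2flx/flx. The 4 mutants, libraries 3382, 3387, 3487 and 3489, had the genotype Six2Cre Mta2flx/flx, in which Cre is driven from the gene Six2 of nephron progenitors, so cells outside that lineage keep Mta2. The floxed alleles are shared by both groups, and no Cre-only group was analysed. The labels name 4 kidneys per genotype and do not state that each came from its own animal, so the p-values speak only of the spread among these 8 samples.

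Tryptophan breakdown starts when Tdo2, Ido1 or Ido2 opens the indole ring to give formylkynurenine. Afmid removes the formyl group, Kmo hydroxylates kynurenine, Kynu cleaves the product and Haao opens the remaining ring. The unstable product is either sent by Acmsd towards acetyl-CoA or becomes quinolinate, which Qprt turns into a precursor of NAD. Aadat takes kynurenine off this line and makes kynurenic acid. In pyrimidine breakdown Dpyd reduces uracil and thymine, Dpys opens the ring, and Upb1 releases beta-alanine or beta-aminoisobutyrate. Liver and the proximal tubule of the kidney are known sites of both routes.

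Levels are in bases assigned to a gene per megabase assigned to all genes (BPM), a unit read from the values because no source states it. Bases assigned to genes, recovered from the values, ranged from 164 to 468 megabases per library, and the number of reads is unknown. Small RNA genes took 16.03% to 34.8% of the bases in the controls and 26.1% to 53.2% in the mutants, with the highest shares in mutants 3387 (48.4%) and 3487 (53.2%) and, among the controls, in 3486 (34.8%). All libraries were scaled to 1 total, so small RNA and other genes compete for it. The median of 13060 tested genes had a log2 difference of -0.23 (mutant minus control, on log2(BPM + 1)). For the tested members, differences below are also given relative to that median. Mta2 itself was at 51.1 ± 13.4 BPM in the controls against 37.2 ± 17.5 in the mutants (SD, n = 4 each), with overlapping groups (log2 difference -0.56, limma adjusted p = 0.857). Transcripts of the Y-linked gene Ddx3y were present in all 8 libraries (15.4 to 53.4 BPM), and Xist was at most 1.57 BPM.

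The DNA upstream of 3 members is shown because, among the 9 tested members, Afmid and Upb1 had the lowest log2 differences and Aadat the highest. The 250 bases before the first transcribed base are from RefSeq (GRCm38.p6, the assembly of mm10), written in the direction of the gene. Starts in GENCODE vM21 differ, with Upb1 from 75401115 and Aadat from 60505932. By that annotation the whole Upb1 window and most of the Aadat window, with its marked motifs, lie inside the gene. Capitals mark a GC box in Afmid at chr11:117825669-117825918 (plus strand), CCAAT boxes on both strands in Upb1 at chr10:75406661-75406910 (plus strand), and in Aadat at chr8:60505874-60506123 (plus strand) a GC box followed by an HNF4 core on the opposite strand.
Afmid: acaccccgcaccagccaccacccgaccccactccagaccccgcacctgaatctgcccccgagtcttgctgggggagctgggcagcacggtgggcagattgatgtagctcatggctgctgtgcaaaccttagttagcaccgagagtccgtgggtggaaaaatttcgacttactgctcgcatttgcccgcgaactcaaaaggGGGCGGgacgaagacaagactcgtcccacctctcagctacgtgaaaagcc
Upb1: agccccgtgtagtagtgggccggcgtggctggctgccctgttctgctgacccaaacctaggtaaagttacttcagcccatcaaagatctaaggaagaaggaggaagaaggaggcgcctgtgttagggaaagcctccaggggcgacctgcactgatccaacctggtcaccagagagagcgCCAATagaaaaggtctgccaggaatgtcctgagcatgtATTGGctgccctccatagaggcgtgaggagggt
Aadat: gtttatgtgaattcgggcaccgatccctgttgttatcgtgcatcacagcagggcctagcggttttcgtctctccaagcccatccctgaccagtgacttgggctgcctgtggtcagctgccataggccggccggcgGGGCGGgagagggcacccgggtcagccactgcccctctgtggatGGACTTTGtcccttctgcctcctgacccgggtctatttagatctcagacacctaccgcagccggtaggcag

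Promoters were found for 8 of the 10 members, not for Kynu and Dpys. Each was searched on both strands for GTTAAT (a core of HNF1 sites), CAAAGTCC (HNF4), AGGTCA (nuclear receptors), GGGCGG (the GC box) and CCAAT, none of which overlapped another in these members. The HNF4 core occurred only in Aadat, at 71 to 64 bases before the start, and in 1.20% of 32851 promoters of the same length. The HNF1 core occurred only in Haao, at 41 to 36 bases before the start, and in 6.43% of all promoters. AGGTCA lay in Haao and Acmsd (14.02% of all), the GC box in Afmid, Aadat and, at 2 places, Dpyd (32.7%), and CCAAT in Upb1 (33.8%). None of the 5 motifs matched in Kmo or Qprt. The GC content of the 8 windows ran from 42.8% in Kmo to 61.2% in Aadat, with a median of 52.4% over all promoters. By GENCODE positions the windows of Kmo and Haao also lie inside the genes, and those of Qprt and Dpyd partly. These matches describe letters and not binding.

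At the entry to the kynurenine line, Afmid, the formamidase, was measured at 117, 68.6, 131 and 117 BPM in the controls. In the mutants it was at 46.0, 31.5, 31.1 and 34.6 BPM. All 4 mutants lay below all 4 controls, and the mutant mean was 33.0% of the control mean (109 ± 27.4 and 35.8 ± 6.96 BPM, SD, n = 4 each). On the log2 scale the difference was -1.55 (SE 0.33), or -1.33 relative to the median gene. Afmid (ENSMUSG00000017718.15) lies on chromosome 11 at 117825924 to 117839908 in GENCODE vM21, plus strand. Its neighbour Tk1, the thymidine kinase of pyrimidine salvage, runs the other way on chromosome 11 from 117826092 to 117815526, and in RefSeq its first base lies 95 bases inside Afmid.

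Tk1 was at 5.66, 3.02, 4.40 and 1.17 BPM in controls and at 7.22, 2.49, 1.36 and 2.42 in mutants. These groups overlapped (log2 difference -0.11, 95% interval -1.17 to 0.95, limma adjusted p = 0.977), and the sign of the difference depended on the scaling. The difference of log2 Afmid minus log2 Tk1 came to 4.66 ± 0.77 for controls and 3.22 ± 0.52 for mutants (SD, n = 4 each), without overlap. The ratio of the plain levels overlapped, because without the pseudocount Tk1 at 1.36 BPM in mutant 3487 put that library within the control range.

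Kmo, the kynurenine monooxygenase, was at 124, 70.2, 142 and 93.6 BPM in controls and at 54.4, 57.3, 38.6 and 64.4 in mutants. The groups did not overlap, and the nearest libraries, control 3486 and mutant 3489, were 70.2 and 64.4 BPM. The mutant mean was 49.9% of the control mean (108 ± 31.98 and 53.7 ± 10.9 BPM), with a log2 difference of -0.96 (SE 0.33), or -0.74 relative to the median gene. Aadat, the transaminase that competes for kynurenine, showed the opposite order. Its levels were 206, 213, 139 and 173 BPM in controls and at 236, 303, 214 and 335 in mutants. All mutants lay above all controls, but control 3486 and mutant 3487 differed by less than 1 BPM (213.2 and 214.1). The log2 difference of Aadat was 0.57 (SE 0.30), or 0.79 relative to the median gene.

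Kynu, the kynureninase, was the lowest of the tryptophan members, at 1.82, 2.20, 2.02 and 6.87 BPM in controls and at 4.35, 3.44, 0.998 and 4.27 in mutants. Control 3587 alone was above every mutant, and the other 3 controls lay inside the mutant range. The log2 difference was 0.05, with a 95% interval of -0.99 to 1.10, or 0.28 relative to the median gene. Haao, the hydroxyanthranilate dioxygenase, had the smallest relative spread between libraries, with SDs of 7.66% and 8.32% of the group means. It was at 202, 219, 182 and 199 BPM in controls and at 184, 156, 158 and 157 in mutants. Only mutant 3382 reached into the control range, and the log2 difference of -0.29 (SE 0.28) was -0.07 relative to the median gene.

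At the branch after Haao, Acmsd, the decarboxylase that keeps carbon from NAD synthesis, was at 148, 91.9, 138 and 188 BPM in controls and at 69.3, 39.3, 56.3 and 95.3 in mutants. Mutant 3489 lay just above control 3486, and otherwise the mutants were lower. Its log2 difference was -1.13 (SE 0.34), or -0.91 relative to the median gene, and the mutant mean was 46.0% of the control mean. Qprt, which commits quinolinate to NAD, was at 43.9, 31.9, 39.8 and 42.5 BPM in controls and at 73.7, 25.0, 29.4 and 52.9 in mutants. Mutants 3382 and 3489 were above all controls and mutants 3387 and 3487 below all controls. The log2 difference of Qprt was 0.07, with a 95% interval of -0.71 to 0.85, or 0.30 relative to the median gene.

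**Figure D1:**
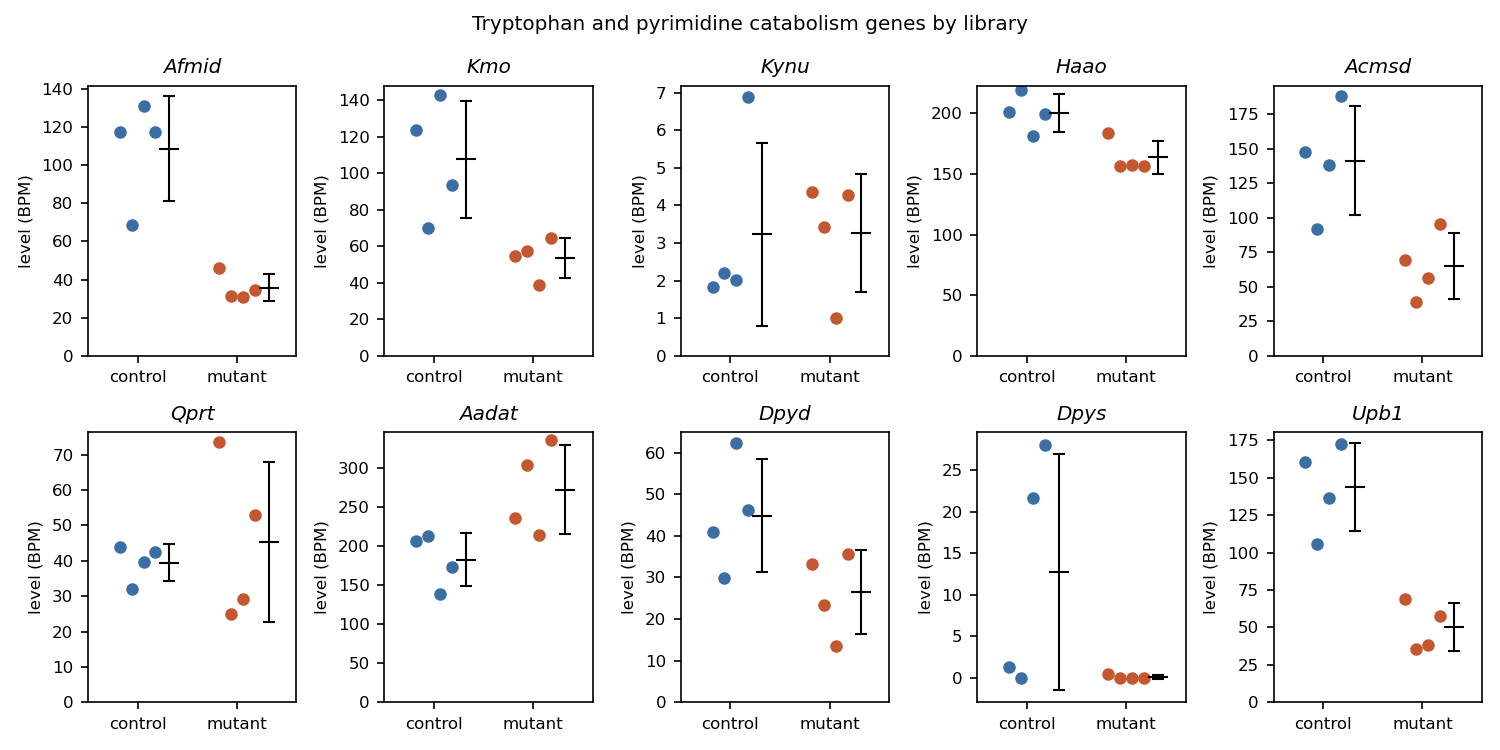
Level of each of the 10 genes in BPM in the 4 control and 4 mutant libraries (points), with the group mean and SD beside them. The groups are apart for Afmid, Kmo and Upb1, which are lower in the mutants, and barely for Aadat, which is higher (213.2 against 214.1 BPM for the nearest libraries), and Dpys is near 0 in 6 libraries.

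In pyrimidine breakdown, Dpyd, which takes the first and rate-limiting step and also inactivates fluorouracil drugs, was at 40.8, 29.8, 62.4 and 46.3 BPM in controls and at 33.3, 23.5, 13.5 and 35.5 in mutants. The groups overlapped through control 3486, and the log2 difference was -0.78 (SE 0.38), or -0.55 relative to the median gene. Upb1, the ureidopropionase of the last step, was at 160, 106, 137 and 172 BPM in controls and at 68.7, 35.4, 38.2 and 57.9 in mutants. All mutants lay below all controls. The mutant mean of Upb1 was 34.8% of the control mean (144 ± 29.3 and 50.1 ± 15.98 BPM), with a log2 difference of -1.53 (SE 0.33), or -1.31 relative to the median gene.

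Dpys, the dihydropyrimidinase between them, had another pattern. It was at 21.6 BPM in control 3586 and 28.1 in control 3587, at 1.34 in control 3401, and no base was assigned to it in control 3486. In the mutants it was at 0.456 BPM in 3382, and no base was assigned in 3387, 3487 or 3489. In assigned bases these values stand for 9487 in control 3586, 5937 in control 3587, 327 in control 3401 and 74 in mutant 3382. The controls thus spanned the whole range of the gene, and Dpys, with 3 libraries at 1 BPM or more, did not pass the filter of 4 such libraries. Olfr1033, an olfactory receptor gene on chromosome 2, chosen after its values were seen, also had bases only in controls 3586 and 3587 (4.44 and 3.29 BPM). Liver shares this enzyme, and the 7 hepatocyte markers differed among themselves over the same libraries, in ways whose part in the Dpys values was not tested. Apoa2 was at 2.81 and 2.60 BPM in controls 3586 and 3587, at 0.523 and 1.49 in mutants 3487 and 3489, and without a base in the other 4 libraries. Alb was at 5.84 and 8.27 BPM in those controls and at 6.43 and 5.20 in mutants 3382 and 3489. Serpina1a was highest in control 3401 (30.4 BPM) and lowest in control 3587 (2.83).

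Levels of different genes were compared per kilobase of GENCODE exon length, an approximation since no source names the gene models behind the deposited values. In the controls Aadat stood first with 83.9 ± 15.6 BPM per kilobase (SD, n = 4), followed by Acmsd (49.9 ± 13.9) and Haao (42.8 ± 3.28). Aadat and Acmsd overlapped in their ranges over the controls, as did Acmsd and Haao. Next came Afmid (30.7 ± 7.75), whose range lay below that of Haao but reached into that of Acmsd. Kmo (22.8 ± 6.77), Upb1 (21.2 ± 4.32) and Qprt (14.9 ± 2.01) followed, each overlapping the gene before it, then Dpyd (5.04 ± 1.53), Dpys (3.41 ± 3.79) and Kynu (0.525 ± 0.396). In the mutants Aadat again stood first, at 125 ± 26.1, and no longer overlapped the next gene, Haao at 35.0 ± 2.91. Afmid was at 10.1 ± 1.97 in the mutants, behind Qprt (17.1 ± 8.53) and Kmo (11.4 ± 2.31), both within overlapping ranges.

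**Figure D2:**
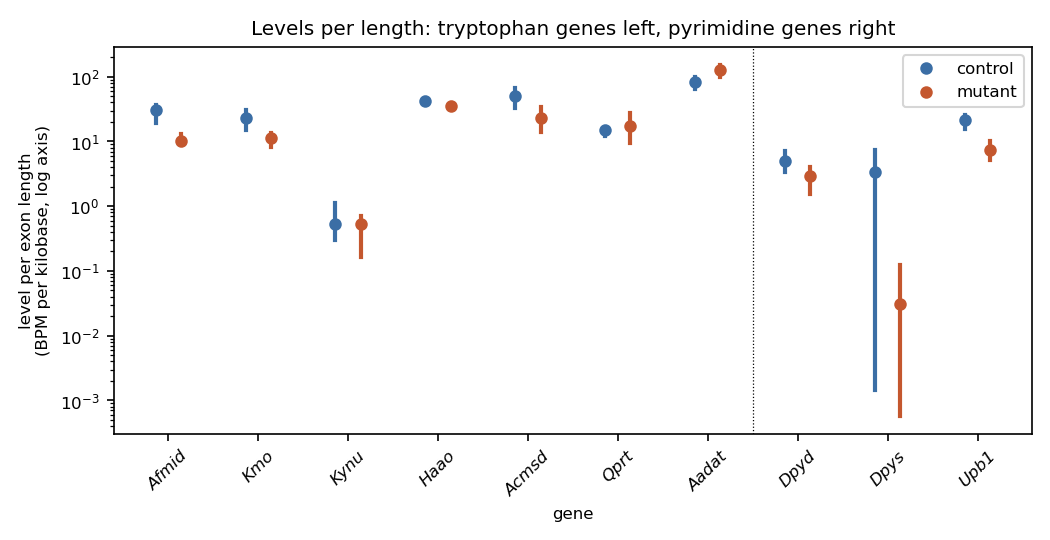
Level per exon length in BPM per kilobase on a log axis, with the mean (point) and the lowest and highest library (line) of the 4 controls and the 4 mutants. Aadat is highest in both groups, at 83.9 and 125 BPM per kilobase, and the lowest ends of the Dpys lines are libraries without an assigned base, where only the base added to every gene by the authors remains.

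Of the 9 tested members, 0 passed an adjusted p of 0.05 in limma, against 0.107% of all tested genes, and 4 had an unadjusted p under 0.05, against 6.33%. The log2 difference was negative for 6 of 9, against 71.6% of all tested genes. The groups did not overlap on the lower side for 3 members, against 3.40% of all genes, and on the higher side for 1, against 0.888%. Since the members were chosen with these values in view, nothing is read from these counts. A log2 difference under -1 was found for Afmid, Acmsd and Upb1 and for 2.42% of all tested genes.

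Within a library, the ratio of 2 genes does not depend on how the library was scaled. The ratios below were chosen after the values were seen. The ratio of Aadat to Kmo was 1.67, 3.04, 0.976 and 1.84 in controls and 4.33, 5.29, 5.55 and 5.21 in mutants, so all mutants were above all controls (1.88 ± 0.857 and 5.09 ± 0.530). The ratio of Acmsd to Qprt, the genes on either side of the NAD branch, was 3.36, 2.88, 3.48 and 4.43 in controls and 0.940, 1.57, 1.92 and 1.80 in mutants, again without overlap. Afmid to Haao came to 0.551 ± 0.171 in the controls and 0.217 ± 0.024 in the mutants, and the highest mutant (0.250) lay below the lowest control (0.313). For Upb1 to Dpyd the groups overlapped, at 3.35 ± 0.788 and 2.01 ± 0.597. 

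**Figure D3:**
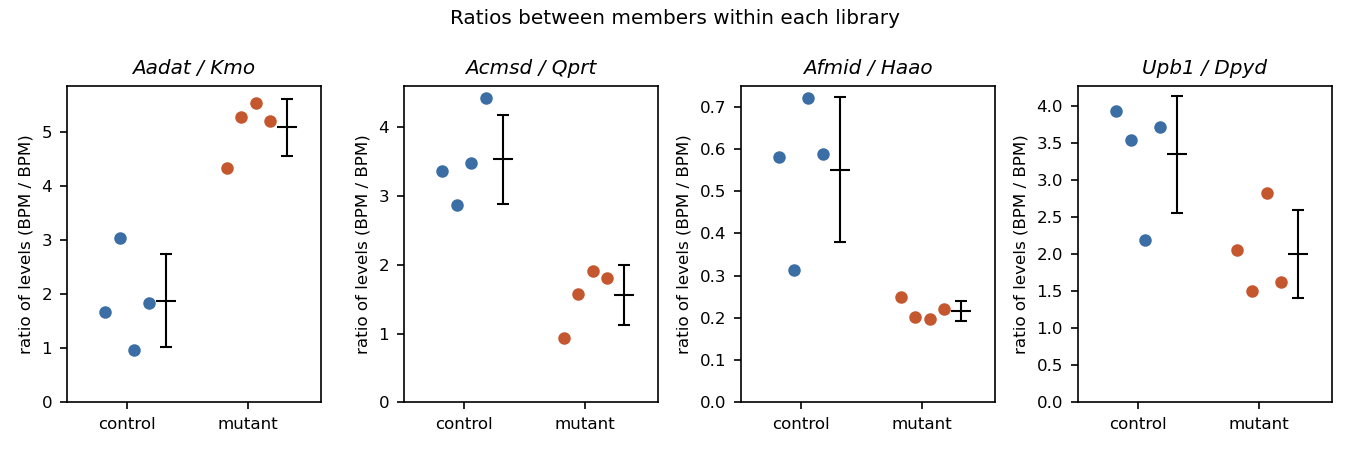
Ratios between pairs of members within each of the 8 libraries (points), with the group mean and SD; the axes start at 0. Aadat to Kmo is higher in every mutant, Acmsd to Qprt and Afmid to Haao are lower in every mutant, and Upb1 to Dpyd overlaps.

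The low points of the members in BPM often fell in the same libraries. Control 3486 was the lowest control for 7 of 10 members, and mutant 3387 or 3487 was the lowest mutant for 9 of 10. The exception was Dpys, without a base in mutants 3387, 3487 and 3489. In each group, these libraries of low points also had the highest share of small RNA. How often all genes were lowest in them was not counted, so nothing particular to the members is read from this. With each library centred on its median gene, Pearson correlations with the mean profile of the tested members over the 8 libraries were 0.85 for Upb1, 0.81 for Afmid and Acmsd, 0.74 for Kmo, 0.68 for Haao and 0.55 for Dpyd. They were 0.18 for Kynu, 0.05 for Aadat and -0.13 for Qprt. Each tested member is itself part of that mean profile, which raises its own value. The libraries fall in 2 groups, so these values mix the difference between the groups with the spread within them. Among all other tested genes, those most like the mean profile were March3 (0.98), 2310036O22Rik (0.98), the leucine aminopeptidase gene Lap3 (0.97), the predicted gene Gm5801 (0.97) and Gcsh, the carrier protein of glycine cleavage (0.97). Lap3 was at 438 ± 43.9 BPM in the controls and 281 ± 70.3 in the mutants, and Gcsh at 165 ± 36.4 and 81.6 ± 15.5.

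Other genes of the same pathways were listed by their place in the pathway, with earlier results of these kidneys known. They came to 54 in 6 groups, of which 53 were in the table and 43 were tested. None passed an adjusted p of 0.05 in limma over all genes. An unadjusted limma p under 0.05 was found for 6 of the 43, against 6.33% of all tested genes. The groups did not overlap on the lower side for 4 of the 43, against 3.40%, and on the higher side for 0, against 0.888%. A negative log2 difference was found for 79.1% of the 43, against 71.6% of all genes. The median log2 difference of the 43 was -0.33, against -0.23 for all tested genes.

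Among the genes that open the indole ring, no base was assigned to Tdo2 in any library, and Ido1 had coverage only in control 3587 (0.283 BPM). Ido2 was at 9.19, 6.90, 11.2 and 5.15 BPM in controls and at 2.14, 2.47, 2.12 and 5.97 in mutants. Mutant 3489 reached the control range, and Ido2 did not pass the test (log2 difference -1.17, limma adjusted p = 0.645). Ddc, which makes serotonin and dopamine, was at 42.8 ± 12.4 and 26.7 ± 13.3 BPM (log2 difference -0.75, limma adjusted p = 0.828). The tryptophan hydroxylases Tph1 and Tph2 had no assigned base.

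The route from the Acmsd product to acetyl-CoA, together with the other kynurenine transaminases, held 9 tested genes, 8 with negative and 1 with positive differences, and for 4 of them all mutants lay below all controls. Over all tested genes, 71.6% were negative and 3.40% lay lower without overlap. Gcdh, glutaryl-CoA dehydrogenase, was at 419, 364, 450 and 481 BPM in controls and at 278, 182, 161 and 301 in mutants. Its groups did not overlap, but it did not pass (log2 difference -0.93, SE 0.30, limma adjusted p = 0.461). Acat1, the acetyl-CoA acetyltransferase that ends this route, was at 880 ± 77.8 and 509 ± 73.9 BPM, also without overlap (log2 difference -0.79, limma adjusted p = 0.562). Ccbl1 and Ccbl2, which share the transaminase step with Aadat, had log2 differences of -0.16 and -0.80 (limma adjusted p of 0.943 and 0.722). Got2, listed with them, had a log2 difference of -0.03 (limma adjusted p = 0.993). None had a positive difference as Aadat did, but Ccbl1 and Got2 lay above the median gene at -0.23.

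For NAD synthesis outside Qprt, 8 genes were tested, 3 with positive and 5 with negative differences. The nicotinamide riboside kinase gene Nmrk1 was at 151 ± 43.9 and 108 ± 18.6 BPM (log2 difference -0.45, limma adjusted p = 0.857). Nnmt, which methylates nicotinamide, was at 2.64 ± 1.81 and 6.38 ± 6.76, with 16.3 BPM in mutant 3382 (log2 difference 0.74, limma adjusted p = 0.861). Nampt, the main salvage enzyme, had a log2 difference of 0.03 and Nadsyn1, the last step after Qprt, also 0.03.

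Around Dpyd and Upb1, 10 tested genes release or salvage uracil, thymine and their nucleosides. The uridine-cytidine kinase gene Uck1 was at 53.9 ± 3.99 and 34.1 ± 15.9 BPM (log2 difference -0.74, limma adjusted p = 0.788), and mutant 3382 (57.5) lay among the controls. Nt5c3, a pyrimidine nucleotidase gene, had a log2 difference of -0.34 (limma adjusted p = 0.881). Of the 8 tested genes that handle beta-alanine and beta-aminoisobutyrate, Cndp1, a carnosine dipeptidase gene, was at 156 ± 82.6 and 72.5 ± 34.9 BPM (log2 difference -1.13, limma adjusted p = 0.569), and Hibch at 104 ± 26.3 and 67.7 ± 14.7 (-0.60, 0.818). Agxt2, which uses beta-aminoisobutyrate, had a log2 difference of 0.11. In the 6 tested genes of new pyrimidine synthesis, Umps and Dhodh had log2 differences of -0.64 and -0.57 (limma adjusted p of 0.853 and 0.857).

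**Figure D4:**
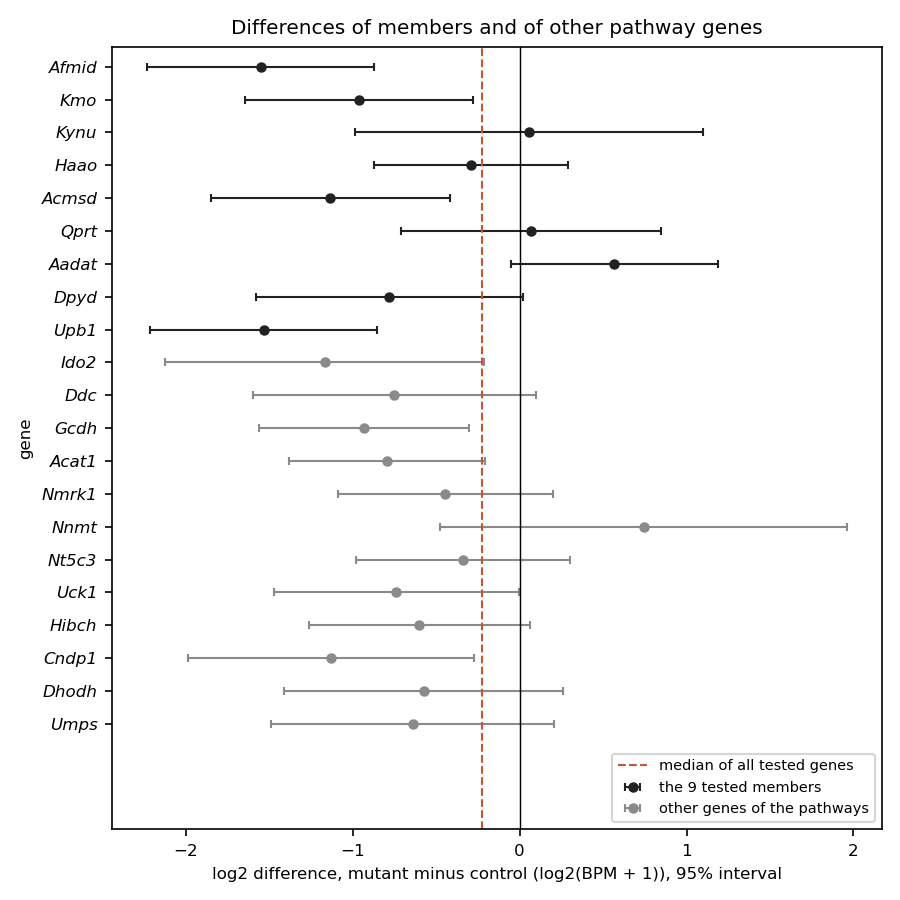
Log2 difference (mutant minus control, on log2(BPM + 1)) with its 95% interval for the 9 tested members and for the 12 other pathway genes named by the smallest p in each group; the dashed line is the median of all tested genes, -0.23. Afmid (-1.55) and Upb1 (-1.53) are lowest, and Aadat (0.57) and Nnmt (0.74) are highest.

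Because whole kidney was measured, fewer cells of a type and less RNA per cell cannot be told apart. The 16 listed proximal tubule markers summed to 12085 to 26004 BPM in the controls and 8330 to 17045 in the mutants, and none was at 0. For 3 of 16 (Fbp1, Acsm2 and Napsa) all mutants lay below all controls, against 3.40% of all tested genes. An unadjusted limma p under 0.05 was found for 3 of 16, against 6.33%. All 16 had negative log2 differences (median -0.51), and 0 of 16 passed the test. Lists of other tubule segments, podocytes and endothelium had negative medians too, against -0.23 for all tested genes. The macrophage and hepatocyte lists had positive medians (1.18 over 8 and 0.70 over 4 tested markers). The median was -1.05 over 4 distal convoluted tubule markers (summing to 300.0 to 641 and 131 to 338 BPM) and -0.63 over 6 endothelial markers (210 to 441 and 131 to 250 BPM), 0 of them called. The medians were -0.47 for 6 podocyte, -0.23 for 5 thick ascending limb and -0.22 for 7 collecting duct markers, also with 0 called. Lower without overlap were 2 of the 4 distal convoluted tubule markers and 1 of the 5 thick ascending limb markers. The podocyte, endothelial and collecting duct lists had 0 such markers. Summed over the 10 members, the level was 5.61% ± 1.29 of the proximal tubule marker sum in the controls and 6.11% ± 1.10 in the mutants. The mean log2 of the 16 proximal tubule markers was then subtracted in each library. After this the mutant minus control difference was -1.04 for Afmid and -1.02 for Upb1, without overlap of the groups. It was -1.99 for Dpys, most of whose libraries had no or few bases, -0.62 for Acmsd, -0.45 for Kmo and -0.26 for Dpyd, each with overlapping groups. On the other side it was 1.08 for Aadat, 0.59 for Qprt, 0.57 for Kynu and 0.22 for Haao, also with overlapping groups. Among 7 regulators of the tubule and its metabolism, 0 passed, with Hnf4g at a log2 difference of -1.02 (limma adjusted p = 0.780), Ppargc1a, the coactivator of oxidative metabolism, at -0.61 (0.857) and Hnf4a at -0.45 (0.859).

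Sums of other marker lists overlapped between the groups, and their part in the results was not tested. The 8 injury markers summed to 520 to 891 BPM in the controls and 618 to 3371 in the mutants, and Havcr1, the kidney injury molecule, was the 1 called member of 6 tested (33.1, 79.6, 6.499 and 88.6 against 375, 481, 260 and 624 BPM, limma adjusted p = 0.0103). All 6 tested injury markers had positive log2 differences (median 1.20, against -0.23 for all tested genes). The 9 macrophage markers summed to 108 to 200 BPM in the controls and 196 to 1519 in the mutants, with 0 of 8 tested called. All 8 had positive log2 differences (median 1.18), and 3 lay higher without overlap, against 0.888% of all tested genes. The 7 hepatocyte markers summed to 10.6 to 36.3 and 15.9 to 53.4 BPM, with Apoa1 at 0 in all libraries. The 8 genes listed as sex-biased in kidney summed to 45646 to 59533 and 28521 to 57126 BPM, 6 with negative and 2 with positive log2 differences. Most of these sums came from Kap, with means of 48702 and 39424.5 BPM. Slc7a12 and Prlr (4.73 ± 3.73 and 42.5 ± 33.4 BPM) lay higher without overlap, against 0.888% of all tested genes. Cyp2a4 lay lower without overlap (log2 difference -1.47), against 3.40%. Slc7a12 was the 1 called, and was higher in the mutants (4.29 ± 4.76 and 106 ± 43.4 BPM, limma adjusted p = 7.60e-05).

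Other annotated genes overlap some members, and no source used here says whether the deposited values separate strands. Gucd1 spans Upb1 on the opposite strand and was at 160 ± 22.6 and 142 ± 34.5 BPM, with a log2 difference of -0.20. Fh1 overlaps the GENCODE start of Kmo (chromosome 1, 175620381) on the opposite strand, but ends at 175625635, before the RefSeq start of Kmo at 175632193. Its log2 difference was -0.19. The starts of Upb1 also differ, 75401115 in GENCODE and 75406911 in RefSeq. Reads of such pairs cannot be told apart without strand. The antisense gene 2900009J06Rik within Acmsd was at most 0.513 BPM, and no base was assigned to Gm16291 within Dpys.

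**Figure D5:**
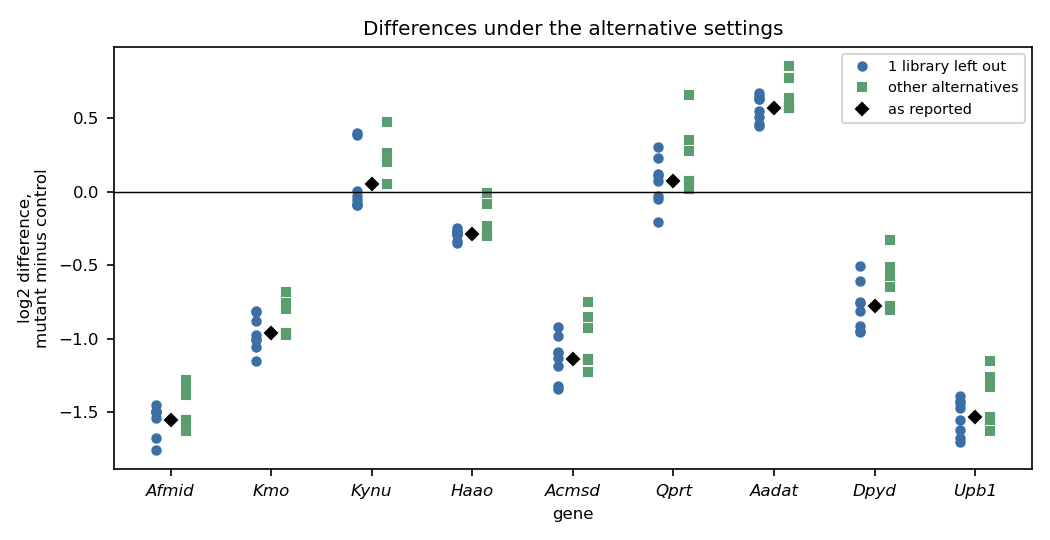
Log2 difference of each tested member as reported (diamond), with each of the 8 libraries left out in turn (circles) and under the other alternatives (squares). Afmid, Upb1, Acmsd, Kmo, Dpyd and Haao stay below 0 and Aadat above 0, while Kynu and Qprt lie on both sides of 0.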

How the data were processed

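Total RNA of whole kidneys was depleted of ribosomal RNA and made into Ion Torrent libraries, per the labels' protocols. The authors deposited 1 table with a value per gene and library, group means, a ratio of the means and a p-value. What the authors deposited per gene was taken as coverage signal, since 100% of values are whole multiples of their library's lowest value (tolerance 1e-06), 0.0435% of positive values lie from 1 to 19 such steps, and each library sums to about 280 megabases. A value was taken as bases assigned to a gene plus 1, scaled. The authors' ratio and p-value were not used. Per the submitters' processing notes, bedtools and mm10 were used.

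Values were divided by 280 to give BPM. The test needed 1 BPM or more in at least 4 libraries. It was 2-sided limma (version 3.58.1, trend option, R 4.3.3) on log2(BPM + 1) values with a Benjamini-Hochberg threshold of 0.05. The method was tested on simulated data with independent spread for each gene and no difference in small RNA share between libraries. Nothing is read from it about the shifts between these libraries. The plan named values relative to the library total, which BPM is. Positions and exon lengths are from GENCODE vM21, and 22885 of 23219 symbols matched. The members, pathway lists and alternatives were chosen with earlier results of these data known. Named pathway genes are the 2 tested genes of smallest p in each list where none was called. The profile comparison took the 5 genes of highest Pearson correlation. Genes that overlap members are given for their position. Further pathway genes and markers were named after their values were seen, and the motifs were chosen late too.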

Additional observations from a re-analysis of the deposited data

Results flagged for a closer look

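In a group of 4, a library was singled out when its gap to the nearest other library exceeded Dixon's 95% limit as a share of the group's range, which chance gives in about 1 in 20 groups. Of 52 groups checked, 4 were past it. Kynu was at 6.87 BPM in control 3587, against 1.82 to 2.20 in the other controls. Haao was at 184 BPM in mutant 3382, against 156 to 158 in the other mutants. Dpys was at 0.456 BPM in mutant 3382, which stands for 74 assigned bases, and no base was assigned in the other mutants. Ido2 was at 5.97 BPM in mutant 3489, against 2.12 to 2.47 in the other mutants.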

How the results depend on the processing

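Of all tested genes, 14 passed in the fit reported. The count was 9 with a pseudocount of 0.1, 9 with a filter of 5 BPM, 0 without a filter (limma, 1274 genes at an unadjusted p under 0.05), 72 with median scaling, 58 with small RNA genes left out of the totals, 73 with array weights (whose estimate stopped before full convergence) and 51 without both mutants 3387 and 3487. Leaving out 1 library gave 5 (mutants 3387 or 3489) to 40 (mutant 3487), with 8 without controls 3401 or 3587 and 37 without control 3486. The cause was not tested. No member passed in the fit reported. Afmid and Upb1 made 2 calls with median scaling (against 0.551% of all tested genes), with small RNA genes left out of the totals (0.433%), with array weights (0.559%) and without control 3486 (0.287%), so that leaving out 1 library gave 0 to 2. Nothing is read from these counts, since the members were chosen on these values. Other pathway genes gave 0 calls in all 15 alternatives. The log2 difference ranged from -1.76 to -1.28 for Afmid, -1.70 to -1.15 for Upb1, -1.34 to -0.75 for Acmsd, -1.15 to -0.68 for Kmo, -0.95 to -0.32 for Dpyd and 0.44 to 0.85 for Aadat. Haao came to -0.09 with median scaling and -0.01 without small RNA genes. Qprt ran from -0.20 to 0.66 and Kynu from -0.09 to 0.47. Tk1 turned positive, at 0.096 with median scaling, 0.094 without small RNA genes and 0.33 without both mutants. Without single libraries it ran from -0.47 (mutant 3382) to 0.13 (mutant 3487), with 0.11 and 0.011 without controls 3401 and 3586. No paired analysis was made because the labels name no pairs, and the replicate numbers do not show whether any libraries were paired. Depth in reads is unknown, so no counting error is given, also for Dpys and Kynu at their low levels.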
